A study of Mus musculus with 56 samples.

Results

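The antisense lncRNA genes described here are 1550 genes of a mouse liver gene table of 25415 genes. A gene was taken if GENCODE vM21 gives it the gene type antisense and its deposited value was above 0 in at least 28 of 56 libraries. The table lists 1650 antisense genes, of which 1551 reached that detection level and 99 did not. A single host gene of small nucleolar RNAs was left out. Each gene was paired with the protein-coding gene on the opposite strand whose gene body it overlaps most, or else with one whose start lies within 2 kb, and 1519 members had such a partner.

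The study asked how feeding time sets 24 h rhythms. For 7 days, female C57BL/6J mice aged 9 weeks, under 12 h of light and 12 h of dark, could eat either in the light phase only (DRF, daytime-restricted feeding) or in the dark phase only (NRF). Liver came from ZT0, 4, 8, 12, 16, 20 and 24, where ZT is zeitgeber time, counted in h from lights on, and each of the 14 groups of regimen and time has 4 samples. The protocol describes ribosomal RNA depletion of whole liver RNA and libraries that keep the strand, while another label field names the molecule as polyA RNA. All mice were on restricted feeding, so neither regimen is an ad libitum control, and NRF is the reference here.

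Levels are given as scaled counts, which are linear in recovered counts. 1 scaled count stood for between 304 and 723 recovered counts, depending on the library, and the recovered counts of a library summed to between 273 and 629 M. These sums are several times the reads per sample that the paper reports on average. Recovered counts are therefore units of the inversion used here and not numbers of reads or a sequencing depth. The reason for the gap was not tested. In bulk liver, fewer cells of a type and less RNA per cell cannot be told apart. The summed level of 6 of the 8 hepatocyte markers listed, the 6 that could be tested, lay between 23500 and 46318 scaled counts in every library. The summed level of 5 cholangiocyte markers stayed between 20.6 and 40.8, that of 6 Kupffer cell markers between 511 and 1031, of 6 sinusoidal endothelial markers between 375 and 528 and of 6 stellate cell markers between 625 and 907. That of 6 lymphocyte and erythroid markers ran from 353 to 1262 under DRF and from 290.04 to 787 under NRF, with 2 of them higher in mean under DRF, and its part in the results was not tested.

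An antisense lncRNA is transcribed from the strand opposite another gene, most often a coding one. It can start from a shared divergent promoter, from inside an intron or exon of the partner, or beyond the partner's 3' end. Many such RNAs stay in the nucleus, are made at low levels and are removed quickly by the nuclear RNA exosome. A few, such as Airn, Kcnq1ot1 and Tsix, are known to silence genes on their own chromosome. In the liver, the core clock uses BMAL1 (encoded by Arntl) and CLOCK, which bind E-boxes. The ROR and REV-ERB receptors act through ROR elements (ROREs), and the factors TEF, DBP and HLF act through D-boxes.

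The sequences below come from some of the loci named in the text. Promoter windows were available for 26 of the 63 named members. Those printed were picked, so how many of them hold a motif does not measure enrichment. Promoter windows run from 250 bases before to 50 bases after a RefSeq start (build GRCm38.p6), 5′ to 3′ on the strand of the gene named, with matches of the searched motifs in capitals. The motifs were the E-box CACGTG, the D-box TTATGTAA, the RORE and DR1 (a direct repeat of the half-site AGGTCA), on both strands. Of 32851 promoter windows of the mouse genome, 7.15% held the E-box, 0.938% the D-box, 0.219% the RORE and 0.0396% DR1. Of 709 windows of 569 members, 7.62%, 0.987%, 0.564% and 0.141% held them, in the same order. For the RORE and DR1 these shares are 4 and 1 windows. A match is a description of these letters and not a bound site.
Tef window, plus strand of chr15:81802423-81802722, which also holds the start of the antisense gene Gm17597: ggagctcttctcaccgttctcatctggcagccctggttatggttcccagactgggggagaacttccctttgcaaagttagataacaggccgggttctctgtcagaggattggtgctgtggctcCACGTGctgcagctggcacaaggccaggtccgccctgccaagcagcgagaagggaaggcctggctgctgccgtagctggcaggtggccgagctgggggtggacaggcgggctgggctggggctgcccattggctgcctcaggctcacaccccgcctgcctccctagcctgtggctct
Gm35986 window, minus strand of chr3:129532339-129532638, opposite Elovl6: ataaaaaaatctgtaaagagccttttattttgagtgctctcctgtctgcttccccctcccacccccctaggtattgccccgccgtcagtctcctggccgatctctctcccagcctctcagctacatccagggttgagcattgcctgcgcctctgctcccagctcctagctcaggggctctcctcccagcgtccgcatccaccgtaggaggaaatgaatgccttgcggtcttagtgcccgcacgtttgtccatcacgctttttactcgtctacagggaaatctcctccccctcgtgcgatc
1700112D23Rik window, minus strand of chr3:28781073-28781372, opposite Slc2a2: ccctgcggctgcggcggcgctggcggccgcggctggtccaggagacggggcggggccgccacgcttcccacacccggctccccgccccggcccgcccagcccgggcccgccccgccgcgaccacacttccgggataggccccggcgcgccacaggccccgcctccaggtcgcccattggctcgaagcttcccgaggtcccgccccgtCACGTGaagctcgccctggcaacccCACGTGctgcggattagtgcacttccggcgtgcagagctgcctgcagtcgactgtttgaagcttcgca
Gm16157 window, minus strand of chr7:68276545-68276844, opposite Fam169b: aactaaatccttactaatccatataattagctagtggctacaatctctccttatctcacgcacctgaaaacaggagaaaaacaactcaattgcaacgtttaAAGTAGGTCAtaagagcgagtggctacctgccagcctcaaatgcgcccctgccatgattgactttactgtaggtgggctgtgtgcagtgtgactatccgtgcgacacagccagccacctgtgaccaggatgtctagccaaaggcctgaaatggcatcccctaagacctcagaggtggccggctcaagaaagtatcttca
Gm30505 window, minus strand of chr16:22894337-22894636, opposite Dnajb11: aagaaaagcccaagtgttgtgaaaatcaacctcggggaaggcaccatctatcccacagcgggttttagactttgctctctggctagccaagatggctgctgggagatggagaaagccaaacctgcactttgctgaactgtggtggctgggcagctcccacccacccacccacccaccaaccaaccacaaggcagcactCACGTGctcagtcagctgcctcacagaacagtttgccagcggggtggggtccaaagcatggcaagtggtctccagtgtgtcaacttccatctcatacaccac

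The first of these windows is a divergent promoter. Gm17597 starts on the minus strand at chr15:81802613 and Tef on the plus strand at chr15:81802673, 60 bases apart, with an E-box that ends 62 bases inside the transcribed side of Gm17597. Gm35986 and Elovl6 also run in opposite directions from starts 2 bases apart, at chr3:129532388 on the minus strand and chr3:129532386 on the plus strand, and the Gm35986 window held none of the 4 motifs. The windows of 1700112D23Rik and Gm30505 held E-boxes, and that of Gm16157 held a RORE. The gene named as opposite a window is the partner of the member, and the window need not lie in that gene. That of 1700112D23Rik is at its own start, while its overlap is with the end of Slc2a2. Windows for Gm14097, Gm28513 and Gm45355 were not used here, so transcript sequence (GENCODE vM21) is shown for the member with the smallest adjusted p for rhythm and for the one inside Arntl.
Gm14097, bases 49 to 248 of its 470-base transcript, the stretch after the 48 bases that lie in exons of Shld1, minus strand of chr2:132694654-132694853: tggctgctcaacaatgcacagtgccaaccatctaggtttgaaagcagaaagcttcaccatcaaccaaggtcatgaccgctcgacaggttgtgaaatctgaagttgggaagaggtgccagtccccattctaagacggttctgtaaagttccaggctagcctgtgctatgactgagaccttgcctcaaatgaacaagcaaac
Gm45355, bases 1 to 102 of its 296-base transcript, minus strand, with 1 intron removed, between chr7:113293138 and chr7:113295337, capitals marking the 33 bases that lie in coding sequence of Arntl: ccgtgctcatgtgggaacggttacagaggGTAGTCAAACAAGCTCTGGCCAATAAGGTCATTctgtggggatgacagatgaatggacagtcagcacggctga

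Antisense members were mostly low. Their mean level had a median of 0.844 scaled count (quartiles 0.187 and 2.56, range 0.00564 to 788), 95 members averaged at least 10 and 262 under 0.1. Per kb of exon, the median was 0.708 scaled count for members, 1.53 for protein-coding genes and 0.217 for lincRNA genes that passed the same detection level. Detection was broad: 1227 members were above 0 in all 56 libraries, and no member was above 0 in fewer than 11 libraries of DRF or 10 of NRF. Detection chose the members, so these levels are a description and carry no test.

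By position, 779 members (50.3%) lay inside their partner's gene body, 363 (23.4%) overlapped it head-to-head at the start and 292 (18.8%) tail-to-tail at the end. Another 49 enclosed their partner, 36 had a partner start within 2 kb without overlap and 31 had none. The 1519 pairs used 1446 distinct coding genes, so some members share a partner. Exons of 485 members touched no exon on the opposite strand, and those of 44 lay in opposite-strand exons entirely. The notes of the submitters do not say whether counting used strand. Without strand, reads of a member and its partner cannot be told apart where they overlap.

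Members were lower than their partners per kb of exon in most pairs. Over the 1468 pairs with both genes tested, the median member-to-partner ratio was 0.335, and 354 members (24.1%) were above their partner. The ratio rose with exon overlap. Its median was 0.258 in the 497 pairs with no shared exon bases, 0.325 in the 519 with up to 25% of the member's exons in the partner's, 0.418 and 0.491 in the next 2 classes and 0.581 in the 39 pairs with 100%. The use of strand in counting moves with this overlap and its part in the result was not tested.

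**Figure D1:**
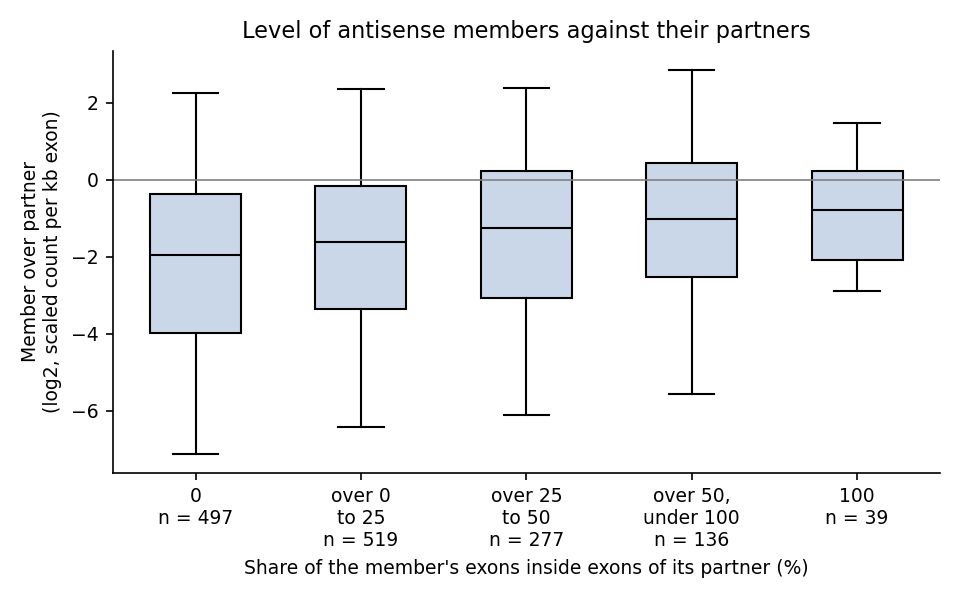
Box plot of the member-to-partner ratio (log2 of scaled count per kb of exon, y axis) for 1468 pairs grouped by the share of the member's exons inside exons of the partner (x axis). Boxes span the quartiles with the median as a line, whiskers run from the 5th to the 95th percentile, and the medians rise from the class with no overlap (ratio 0.258) to the class with full overlap (0.581).

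The members with the highest level per kb of exon mostly lay opposite highly expressed liver genes. Sardhos, inside Sardh (sarcosine dehydrogenase, mitochondrial one-carbon metabolism), was the highest at 732 scaled counts per kb, against 411 for Sardh. Its libraries ranged from 126 to 287 scaled counts under DRF (median 222) and from 81.2 to 305 under NRF (median 172), so the regimens overlapped. B430119L08Rik, inside the serine protease inhibitor gene Serpina1c, stood at 395 per kb against 2811, in a locus of near-identical Serpina1 copies whose reads may be split. Gm16559, tail-to-tail with Adh1 (alcohol dehydrogenase), reached 267 against 1090, and Gm16090, tail-to-tail with the desmosomal cadherin gene Dsg2, 263 against 26.5. B430119L08Rik was 0.44 lower on the log2 scale under DRF (adjusted p = 0.00039), as was Serpina1c by 0.23. Counts of B430119L08Rik, Gm16559 and Gm16090 were recovered under a wider tolerance. Gm15756, with 74.5% of its exons in those of Aldh1l1 (folate metabolism), stood at 155 against 383.

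Before rhythms are given, a shift shared by the members has to be stated. In each library the median deviation of all 1550 members from their own mean was taken on the log2 scale. Group means were above 0 from ZT0 to ZT8 and below 0 from ZT16 to ZT24 under both regimens, while at ZT12 they were -0.134 under DRF and 0.0734 under NRF. Under DRF the group mean was 0.195 ± 0.094 (SD, n = 4) at ZT8 and -0.158 ± 0.158 at ZT24, and under NRF it was 0.270 ± 0.140 at ZT0 and -0.216 ± 0.116 at ZT24. Group means of the coding partners stayed between -0.0131 and 0.0314. For lincRNA genes they ran from -0.0908 to 0.151. For 200 sense intronic genes they ran from -0.211 to 0.262 and were highest at ZT24 in both regimens. Members without any opposite exon overlap went from 0.261 at ZT0 to -0.191 at ZT24 under NRF, and the 44 members wholly in opposite-strand exons from 0.372 ± 0.211 to -0.403 ± 0.232.

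**Figure D2:**
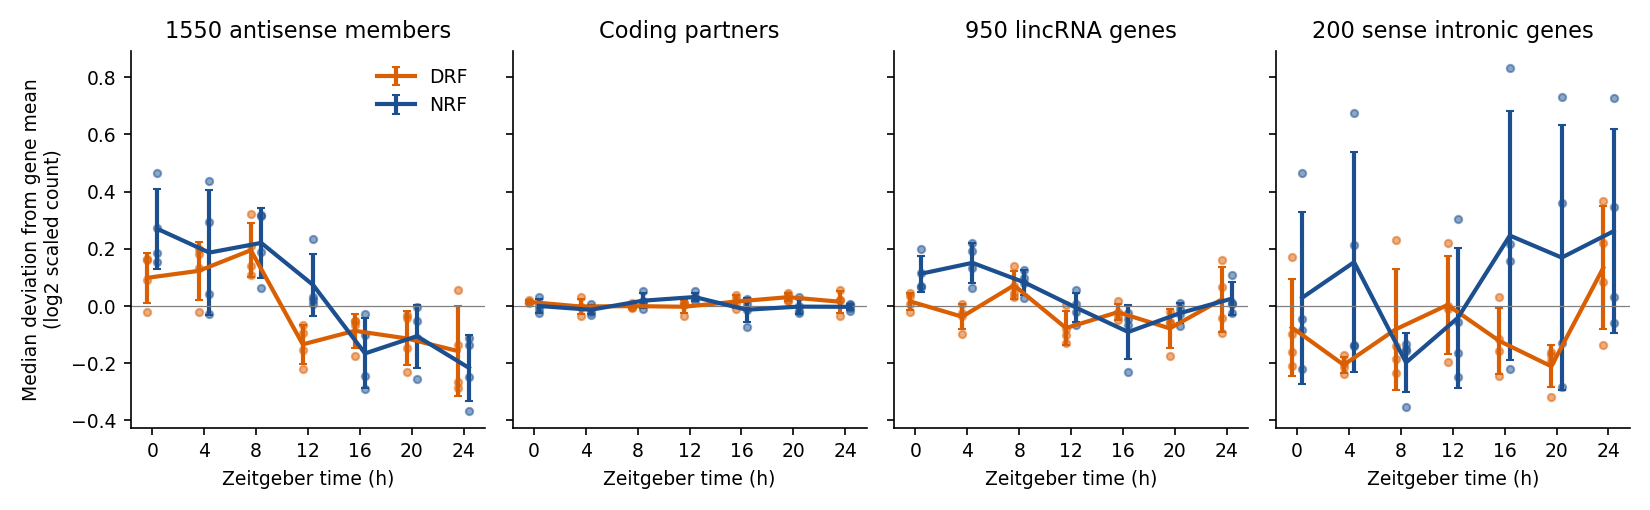
Median deviation from each gene's mean (log2 scaled count, y axis) against zeitgeber time for the 1550 members, their coding partners, 950 lincRNA genes and 200 sense intronic genes. Small points are libraries, lines join group means and bars are the SD of 4 libraries; the members fall from 0.270 at ZT0 to -0.216 at ZT24 under NRF while the partners stay near 0.

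ZT0 and ZT24 are the same clock time, yet the members differed between them. Under NRF, 457 members were lower at ZT24 than at ZT0 (limma, Benjamini-Hochberg adjusted over all genes), where 5.69% of the 24360 genes tested were, and 1 was higher (background 2.25%). Under DRF, 68 were lower (background 1.67%) and 9 higher (background 1.50%). The median change from ZT0 to ZT24 over members was -0.52 on the log2 scale under NRF and -0.27 under DRF, against 0.00 and -0.01 over all genes. The count under NRF fell from 458 to 49 without replicate 2, whose ZT0 library had a median deviation of 0.466 against 0.155 to 0.272 in the other 3, and to 144 without replicate 4. Under DRF it fell from 77 to between 4 and 49 without any 1 of the replicates. With the members' median subtracted from each library, an alternative chosen after seeing the data, 48 were lower and 59 higher under NRF, and 24 and 27 under DRF. With the trend on gene length removed, these were 260 and 34, and 32 and 16.

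The shares of members with a 24 h rhythm lay a little below those over all genes. A cosine was fitted to each regimen's 28 libraries. At an adjusted p under 0.05, 508 members (32.8%) cycled under DRF (background 36.6%) and 676 (43.6%) did under NRF (background 45.0%). In both regimens 302 members (19.5%) were rhythmic (background 24.4%). The rhythm itself differed between regimens in 459 members (29.6%; background 40.1%), and 519 (33.5%) differed between regimens at some time (background 43.9%). The count under DRF was 331 without replicate 1 or without replicate 3.

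Peak times clustered in the light phase. Under DRF 260 of the 508 rhythmic members (51.2%) peaked between ZT4 and ZT8, as did 379 of 676 (56.1%) under NRF, while over all rhythmic genes 24.8% and 29.2% did. Over the whole light phase the shares were 86.2% and 86.7%, against 45.4% and 51.9% for the rhythmic coding partners. The clustering moved with the shared shift. With the members' median subtracted, 52.2% peaked in the light phase under DRF and 49.3% under NRF. Removing the length trend left 69.7% and 72.5%.

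Among the 302 members rhythmic in both regimens, the peak moved by a median of 5.12 h between regimens. Here 102 (33.8%) were phase-inverted, with peaks 8 to 12 h apart, and 132 (43.7%) were phase-locked, within 4 h. Over all 5937 genes rhythmic in both, 51.1% were inverted and 24.6% locked. All 102 inverted members also differed in rhythm by the test of the difference, and 110 of the 132 locked members did not pass it. Over all genes, all 3034 inverted genes passed it and 1136 of 1459 locked genes did not. Genes rhythmic in both regimens with peaks so far apart pass that test almost by selection, so it is no separate support for the classes. Which class was larger changed with the processing and the libraries. With the members' median subtracted, 168 were inverted and 52 locked, with the length trend removed 141 and 68, and with the values as deposited 128 and 104. More were inverted than locked also without replicate 3 (84 and 54), without replicate 1 (74 and 73) and at an adjusted p of 0.01 (76 and 53). The locked count was between 54 and 92 without any 1 of the replicates.

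**Figure D3:**
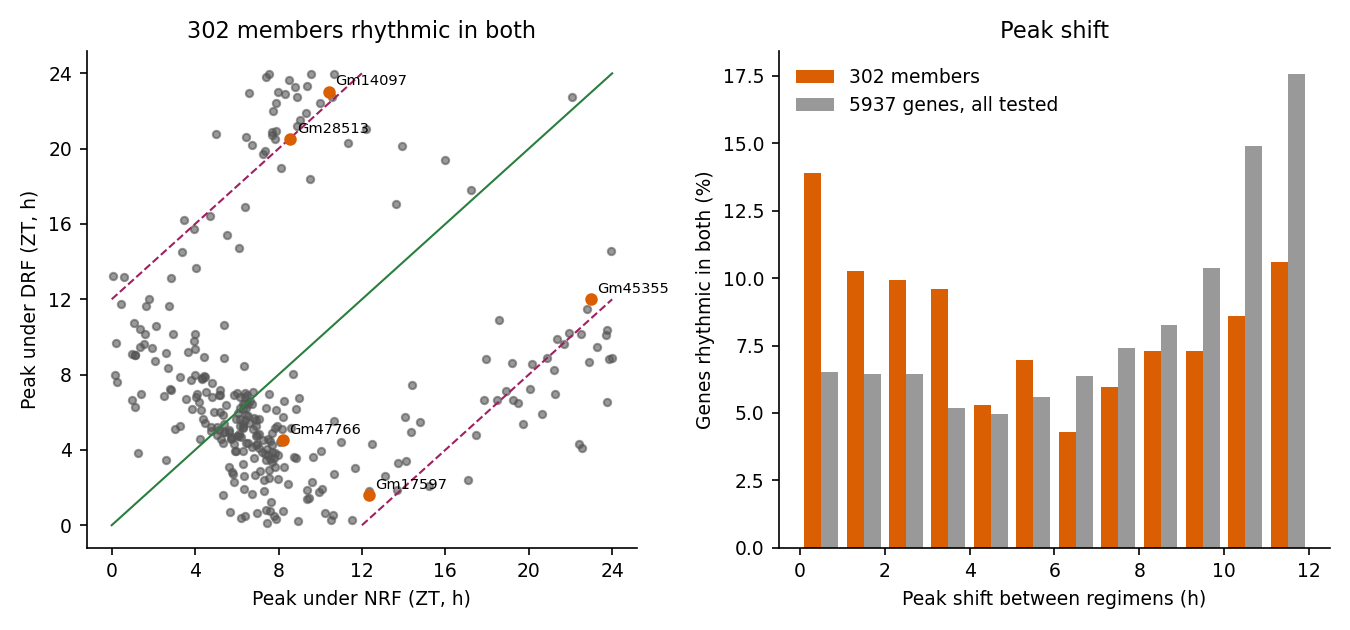
Left, peak time under DRF against peak time under NRF (both ZT in h) for the 302 members rhythmic in both regimens, with equal peaks on the solid line and peaks 12 h apart on the dashed lines; 5 named members are marked. Right, the shift between regimens in bins of 1 h as a share of the 302 members (orange) and of the 5937 genes rhythmic in both (grey), where 17.6% of all genes and 10.6% of members fall in the last bin.

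The members with the smallest adjusted p for rhythm were mostly phase-inverted between the regimens. Gm14097 (ENSMUSG00000084839, minus strand of chr2:132694432-132698523) lies inside Shld1, a subunit of the shieldin complex of DNA repair. Under DRF it was highest at ZT0, with 36.1, 22.4, 32.3 and 32.8 scaled counts, and lowest at ZT12, with 2.35, 2.88, 2.72 and 1.95. Under NRF it was highest at ZT12, with 28.5, 57.9, 33.8 and 35.7, and lowest at ZT20, with 0.993, 1.07, 1.73 and 0.941. The groups did not overlap in either regimen, and the order of ZT0 and ZT12 was reversed. The fitted peak lay at ZT23.0 ± 0.30 h (SE) under DRF and ZT10.4 ± 0.22 h under NRF, 11.4 ± 0.37 h apart, with fitted peak-to-trough ratios of 11.5 and 25.6. The adjusted p for rhythm was 1.45e-15 and 6.91e-21, and that for the difference of rhythm 3.75e-25.

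Shld1 itself moved far less. Its group means ran from 0.529 to 0.840 scaled count under DRF and from 0.501 to 1.11 under NRF, with peaks at ZT20.8 and ZT9.80. Per kb of exon, Gm14097 stood at 25 scaled counts and Shld1 at 0.321.

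Gm28513 (ENSMUSG00000099568, minus strand of chr1:153743552-153749324) overlaps the end of Rgs16, a regulator of G protein signalling. At ZT8 under DRF its values were 0.0438, 0.0129, 0.253 and 0.0541 scaled count, and at ZT8 under NRF 2.64, 1.89, 6.53 and 4.33. All NRF libraries were above all DRF libraries at that time. At ZT24 the order was the reverse, with 3.83, 2.14, 2.46 and 1.84 under DRF and 0.121, 0.0281, 0.0474 and 0.541 under NRF. Peaks were 12.0 ± 0.52 h apart, and the fitted peak-to-trough ratio was 31.2 under DRF and 31.1 under NRF (adjusted p for rhythm 6.41e-11 and 2.09e-11). Rgs16 peaked within 0.242 h of it under DRF and 0.141 h under NRF, and exons of Rgs16 cover 38.5% of the exon bases of Gm28513.

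Gm17597 (ENSMUSG00000097613, minus strand of chr15:81800791-81802613) shares the divergent promoter printed above with Tef, a clock output factor. Under DRF it was highest at ZT0 (4.07, 5.07, 5.29 and 4.74 scaled counts) and lowest at ZT12 (1.17, 1.08, 0.839 and 0.820). Under NRF it was highest at ZT12 (4.32, 4.52, 9.26 and 5.25), with 0.984, 1.14, 0.571 and 0.628 at ZT24. Both contrasts were free of overlap. Its peak lay at ZT1.60 under DRF and ZT12.4 under NRF, 10.8 ± 0.57 h apart (adjusted p for the difference of rhythm 1.14e-17). Tef peaked 1.10 ± 0.63 h from it under DRF and 0.652 ± 0.407 h under NRF.

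Gm45355 (ENSMUSG00000109959, minus strand of chr7:113292944-113295337) lies inside Arntl. It rose from 0.742, 0.612, 0.266 and 0.509 scaled count at ZT0 under DRF to 7.32, 5.0, 6.87 and 6.38 at ZT12. Under NRF the same times gave 9.26, 13.5, 9.18 and 8.64, and 0.239, 0, 0 and 0.116. The regimens thus lay on opposite sides at both times. Its peaks at ZT12.0 and ZT23.0 were 0.0389 and 0.344 h from those of Arntl. Per kb of exon it stood at 14.1 scaled counts and Arntl at 5.15, and exons of Arntl cover 11.1% of its exon bases.

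**Figure D4:**
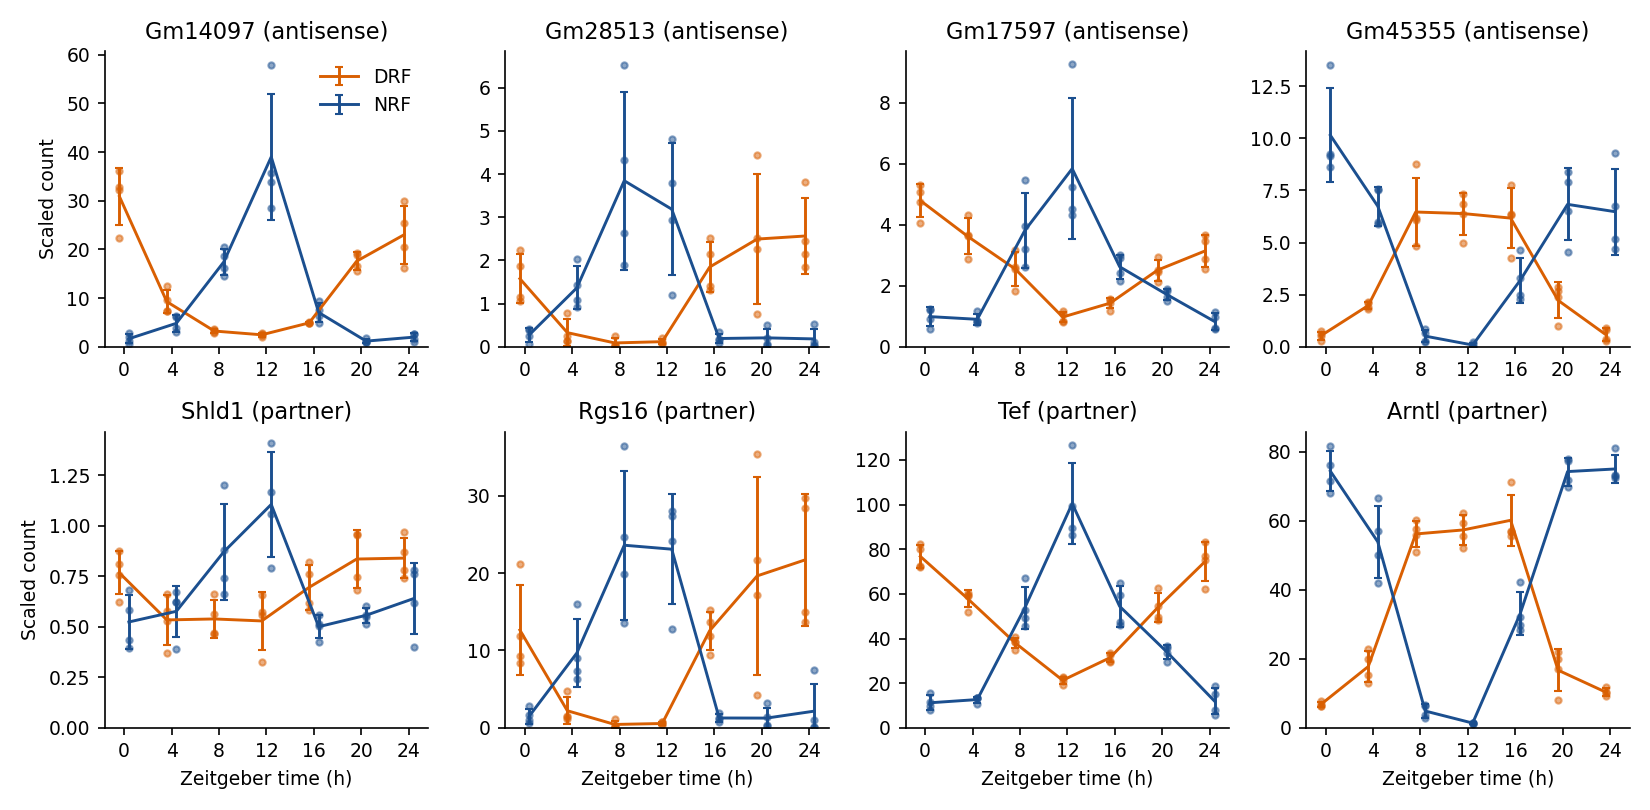
Scaled counts (y axis, linear from 0) against zeitgeber time for 4 antisense members (top) and their coding partners (bottom), DRF in orange and NRF in blue. Points are libraries, lines join the means of 4 libraries and bars are the SD; the fitted peak of each member lies within 2.21 h of its partner's, and the regimens run in opposite phase.

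Among the next members by adjusted p in both regimens, Gm14372 and Gm11695 were inverted as well. Gm14372, inside the scaffold gene Shank2, moved by 8.16 ± 0.68 h. Gm11695, opposite the monocarboxylate transporter gene Slc16a5, moved by 9.28 ± 0.63 h and had a higher rhythm-adjusted mean under DRF (0.43 on the log2 scale, adjusted p = 4.63e-05). Gm47766 was the exception. It lies head-to-head with Actn1 (the actin cross-linker α-actinin) and peaked at ZT4.50 and ZT8.22, 3.72 ± 0.58 h apart. With the members' median subtracted this shift became 5.04 h, and the 7 members described here stayed rhythmic in both regimens.

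Of the members called in only 1 regimen, some with the smallest adjusted p are given next. 206 members were called under DRF alone (background 12.2%) and 374 under NRF alone (background 20.6%), which are 13.3% and 24.1% of members. 1700092C10Rik, opposite the homeobox gene Nkx2-6, had a fitted peak-to-trough ratio of 5.48 under DRF and 1.62 under NRF (adjusted p = 0.064). Gm16157, whose window held the RORE, had 1.59 and 1.08. For NRF, Gm14573 inside the deacetylase gene Hdac11 had a ratio of 3.13 there and 1.25 under DRF (adjusted p = 0.422). Gm11802 inside Tox, a chromatin protein gene, had 3.88 and 1.64 (adjusted p = 0.0547 under DRF). B430219N15Rik inside Ginm1 had 2.62 and 1.33 at a mean level of 0.0405 scaled count. Each of these 5 was also called in its other regimen under some other setting. With the members' median subtracted, 1700092C10Rik and Gm16157 were called under NRF and Gm14573 under DRF. Gm11802 was called under DRF with a mean of at least 0.1 required, and B430219N15Rik with a pseudocount of 0.01. All 5 passed the test of the difference of rhythm, and did so in every alternative setting.

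Where both genes of a pair were rhythmic, most members peaked within 4 h of their coding partner. Under DRF both genes were rhythmic in 317 pairs, with a median difference of peak times of 1.53 h, where the median SE of such a difference was 1.25 h. In 270 of these pairs (85.2%) the peaks lay within 4 h, and in 12 (3.79%) they were 8 h or more apart. Under NRF 453 pairs were both rhythmic, with a median difference of 1.64 h, 374 (82.6%) within 4 h and 26 (5.74%) 8 h or more apart. The medians were 2.42 h under DRF and 2.26 h under NRF on the deposited values, and 1.06 and 0.809 h with the members' median subtracted. In pairs with no shared exon bases the medians were 1.57 h (97 pairs) and 1.64 h (141 pairs), and in pairs with 100% they were 1.07 h (11 pairs) and 1.02 h (10 pairs). Pairs with no shared exon bases can still overlap in gene body. The use of strand in counting is not stated, and its part in these differences was not tested. Shares for unrelated genes are not given here. Of 170 pairs in which both genes were rhythmic in both regimens, 140 stayed within 4 h in each.

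**Figure D5:**
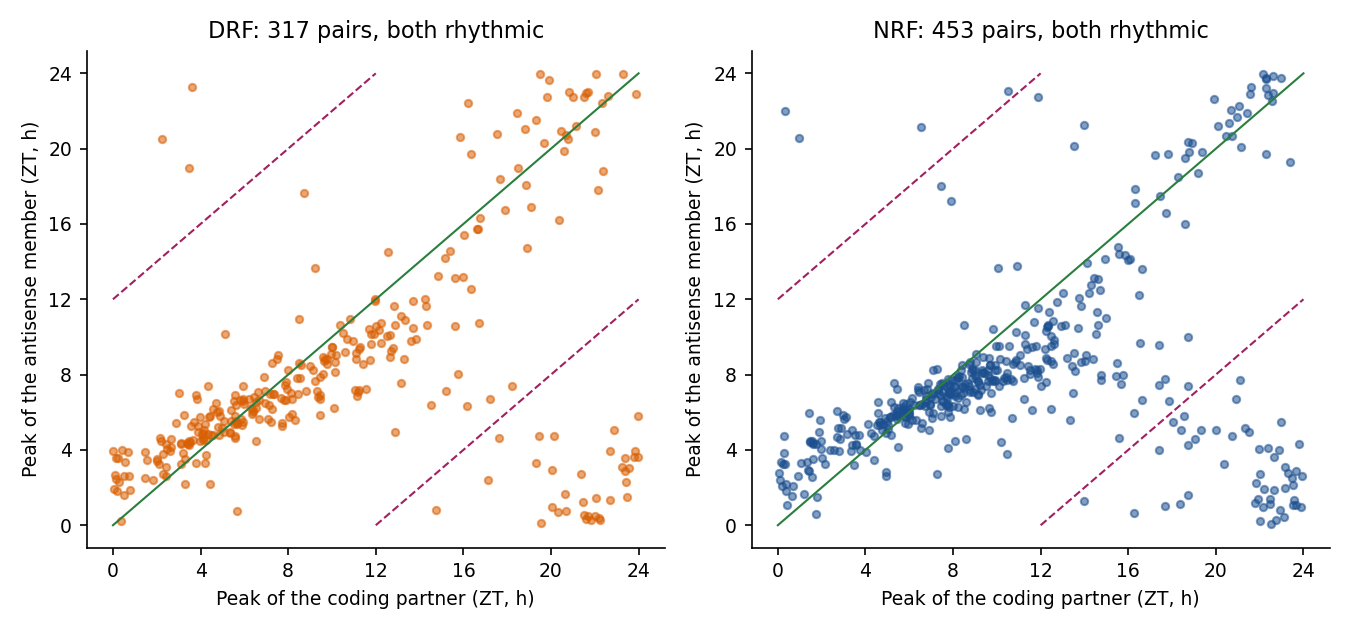
Peak time of the antisense member against peak time of its coding partner (both ZT in h) in pairs where both were rhythmic, 317 under DRF and 453 under NRF. Equal peaks lie on the solid line and peaks 12 h apart on the dashed lines, and 85.2% and 82.6% of the pairs lie within 4 h.

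Pairs 8 h or more apart in both regimens numbered 2, and they are named after their values were seen. D130020L05Rik, head-to-head with the phosphatase subunit gene Ppp4r3a, peaked at ZT0.824 under DRF and ZT7.42 under NRF, 10.1 and 11.3 h from its partner. 3300002A11Rik, inside the forkhead gene Foxn3, peaked at ZT6.41 and ZT5.48, 8.11 and 11.4 h from its partner, with adjusted p for rhythm of 0.0181 and 0.0484.

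Each regimen also held pairs in which a single gene was rhythmic. Under DRF 168 members were rhythmic beside a partner that was not called, and 481 partners beside a member that was not. Under NRF these were 194 and 447, each time of 1468 pairs. Over all protein-coding genes tested, 46.4% were rhythmic under DRF and 54.0% under NRF, against 32.8% and 43.6% of members. A call in 1 gene of a pair and not in the other is no test that their rhythms differ.

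The ratio of member to partner asks whether both genes change in proportion. It can be rhythmic also where they peak together with unlike amplitudes. It was fitted on the log2 scale for all 3024 overlapping pairs of a non-coding and a coding gene, of which 1434 are members. The ratio was rhythmic in 245 member pairs under DRF (background 17.1%) and in 449 under NRF (background 32.4%). Those are 17.1% and 31.3% of the member pairs. The counts rest on the scale used: they were 627 and 758 on the deposited values, 506 under DRF with a pseudocount of 1, 140 and 291 with the length trend removed, and 148 and 235 with the members' median subtracted.

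The ratio of Gm14097 to Shld1 had the smallest adjusted p of all member pairs (4.11e-16 under NRF and 2.40e-11 under DRF), with fitted peak-to-trough ratios of 15 and 7.65. Gm16573, inside the vault particle gene Parp4, was rhythmic under both regimens. Its values at ZT16 were 6.50, 4.04, 3.27 and 3.25 scaled counts under DRF and 7.08, 4.25, 4.04 and 5.06 under NRF, against 3.11, 2.28, 2.95 and 2.77, and 1.4, 1.0, 1.61 and 1.44, at ZT8. It peaked at ZT17.8 and ZT17.2, 0.560 ± 0.753 h apart, and its difference of rhythm was called (adjusted p = 0.0218, but 0.0733 and 0.257 without replicates 3 and 4), while Parp4 peaked at ZT22.2 under DRF and ZT7.92 under NRF. The ratio of Gm48435 to Tbc1d30, a gene for a Rab GTPase-activating protein, was rhythmic in both regimens (adjusted p = 3.99e-08 and 0.00987). Gm48435 stood at 0.0299 scaled count per kb. Its means of 0.0252 scaled count under DRF and 0.0363 under NRF lay below the pseudocount of 0.05. How far this ratio follows Tbc1d30 alone was not tested. The rhythm of Gm48435 itself was called under DRF (adjusted p = 0.0446) but lost in 8 of 14 other settings. Under NRF it was called (0.000277) and lost in 0 of 14. Gm30505 was rhythmic under NRF (peak ZT6.71, adjusted p = 0.00252) and not called under DRF (0.0663, but 0.033 without replicate 4), and the difference of rhythm was not called (0.623). It had 139, 170, 150 and 143 scaled counts at ZT0 under NRF and 111, 72.6, 91.1 and 60.2 at ZT24. Its partner Dnajb11, a chaperone gene of the endoplasmic reticulum, peaked at ZT7.12 under DRF and ZT20.9 under NRF, so the ratio was rhythmic under NRF (adjusted p = 7.28e-08). The partner was chosen by overlap, and other coding genes at these loci were not compared.

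Few members differed in rhythm-adjusted mean. Of 1550, 12 were higher under DRF (background 4.28%) and 36 lower (background 2.69%). With the members' median subtracted the split was 42 higher and 29 lower. 4930402D18Rik, head-to-head with A1bg (a plasma glycoprotein gene), was 1.37 ± 0.21 (SE) lower on the log2 scale under DRF (adjusted p = 5.57e-06). At ZT0 its values were 0.315, 0.377, 0.852 and 0.728 scaled count under DRF and 3.30, 3.37, 4.41 and 6.21 under NRF, with no overlap. At ZT12 the 2 regimens overlapped, with 1.5, 2.01, 1.12 and 2.44 against 1.11, 0.806, 3.59 and 1.85. A1bg differed by -1.43. 4921501I09Rik, opposite the end of the coactivator gene Ncoa1, differed by -1.14 (adjusted p = 0.0245, and 0.0896, 0.072 and 0.149 without replicates 1, 3 and 4) and Ncoa1 by -0.02 (adjusted p = 0.778).

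The 2 largest positive differences were AC133525.2, opposite the water channel gene Aqp4, at 0.71 (adjusted p = 0.0209), and Gm16401, opposite Prom1 (a membrane glycoprotein gene), at 0.68 (adjusted p = 0.0453). Their partners differed by 1.17 and 0.87, both in the same direction. The call of AC133525.2 was lost without replicate 2 or 3 (adjusted p = 0.204 and 0.149) and that of Gm16401 without replicate 1, 2 or 4 (0.318, 0.176 and 0.17). The ratio to the partner had a different mean in 5 pairs of 1434 (background 0.331%). These were B430219N15Rik with Ginm1, 1700119H24Rik with Mylk, Gm26670 with Rd3, Gm32872 with Cabcoco1 and Gm15690 with Sds, named because the count is small. Of them, 1700119H24Rik was higher and B430219N15Rik and Gm32872 lower under DRF by their own test, while Gm26670 (0.06, adjusted p = 0.75) and Gm15690 (0.02, adjusted p = 0.912) were not called.

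Gene lists were then used to group members by the role of the partner. Of 8 members paired with clock genes, 7 cycled under DRF and 6 under NRF, and the rhythm differed between regimens in 6 (over all genes 36.6%, 45.0% and 40.1%). Beside Gm45355 and Gm17597, 0610040F04Rik opposite Bhlhe40 (a repressor at E-boxes) peaked at ZT3.44 under DRF and ZT14.1 under NRF, 1.44 and 0.798 h from its partner. Gm7467, which starts near Clock without overlapping it, peaked at ZT13.2 and ZT0.0635, and its call under DRF (adjusted p = 0.00677) was lost without replicate 4 (0.0922). Gm28192, inside the casein kinase gene Csnk1d, was called under DRF (adjusted p = 4.74e-05) and not under NRF (0.511). Gm15511, inside Rora, was called under NRF alone (adjusted p = 0.0418, and 0.0945 to 0.109 without 1 of the replicates), where Rora was not called, and its difference of rhythm was not called (0.601). Gm16059, inside the casein kinase gene Csnk1e, was called under DRF alone (adjusted p = 0.039, and up to 0.179 without 1 of the replicates), and its difference of rhythm was not called (0.86). Where both genes of a pair were rhythmic the median difference of peaks was 1.10 h under DRF (7 pairs) and 0.652 h under NRF (5 pairs). For the lists that follow it was 0.908 and 0.990 h (lipid, sterol and bile acid genes) and 1.94 and 2.45 h (glucose and amino acid genes). For hepatocyte transcription factors it was 2.78 and 5.20 h. Each of these rests on 2 to 5 pairs.

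Of 6 members opposite lipid, sterol and bile acid genes, 5 cycled under DRF and 4 under NRF (over all genes 36.6% and 45.0%). Gm13613 lies inside Abcb11, the bile salt export pump gene. Its values under DRF were 31.4, 28.4, 38.4 and 38.6 scaled counts at ZT16 and 14.4, 16.7, 15.8 and 15.5 at ZT4, and under NRF 15.6, 18.3, 11 and 14.3, and 29.4, 36.2, 36.1 and 33.2. The order of the times was thus reversed, with peaks 11.8 ± 0.67 h apart. Gm35986, which shares its start with Elovl6 (a fatty acid elongase gene), peaked at ZT6.47 and ZT19.5. At ZT4 it had 57.2, 35.8, 66.9 and 53.3 scaled counts under DRF and 18.5, 11.4, 9.38 and 12.6 under NRF. Its rhythm-adjusted mean was 0.50 higher under DRF (adjusted p = 0.0127), against 0.25 for Elovl6 (adjusted p = 0.315). Without replicate 1 or 3 this mean was not called (adjusted p = 0.116 and 0.0771). AC110206.1, inside Gpam (glycerolipid synthesis), moved by 11 ± 1.28 h, and Gm48342, inside the cholesterol synthesis gene Hmgcs1, by 5.82 ± 1.04 h. Gm10680, with 90.0% of its exons in those of the apolipoprotein gene Apoa4, had a mean 0.36 higher under DRF (adjusted p = 0.0161), and Apoa4 0.40. Without 1 of the replicates the adjusted p of that mean reached 0.158, that of the rhythm of Gm10680 under DRF 0.203 and that of AC110206.1 under NRF 0.178. Gm43691, inside Mttp, was not called in any of these tests.

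Of 7 members opposite glucose and amino acid genes, 3 cycled under DRF and 5 under NRF, and 5 differed in rhythm (over all genes 36.6%, 45.0% and 40.1%). 1700112D23Rik overlaps the end of the glucose transporter gene Slc2a2. Its window with 2 E-boxes is at its own start and not at that of Slc2a2. 1700112D23Rik was highest at ZT0 under DRF (12.6, 14.7, 16.4 and 16.9 scaled counts) and at ZT12 under NRF (9.57, 13.5, 28.6 and 19.9), with peaks 10.3 ± 1.3 h apart. Its peaks lay 2.03 and 1.78 h from those of Slc2a2. Its call under DRF (adjusted p = 0.00853) was lost without replicate 2 or 4 (0.121 and 0.0687). Gm43500 inside Mlxipl and Gm10851 inside the glycolysis regulator gene Pfkfb3 were called in both regimens, and Gm16180 inside the insulin receptor gene Insr under NRF. Gm20402 inside Foxo1 and Gm15690 inside Sds were called in neither. Without 1 of the replicates the calls of Gm43500 and Gm10851 under DRF reached adjusted p-values of 0.169 and 0.0929, and under NRF 0.063 and 0.0924.

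Of 7 members opposite hepatocyte transcription factor genes, 3 cycled under DRF and 2 under NRF (over all genes 36.6% and 45.0%). Prox1os, head-to-head with Prox1, was called under DRF (adjusted p = 0.000434) and not under NRF (0.895). Its difference of rhythm was called (adjusted p = 0.0336) but lost in 6 of 15 other settings. Among these were the fits without replicate 1 or 2 (0.124 and 0.363) and with the members' median subtracted. Gm28172, inside Prox1, and Tbx3os1, opposite Tbx3, were called in both. Gm45091 opposite Cebpa, Hnf1aos1 and A830082K12Rik opposite Nr2f1 were in neither, nor was Hnf4aos (adjusted p = 0.136 and 0.124), although its difference of rhythm was called (adjusted p = 0.0169, and up to 0.15 without 1 of the replicates). The calls of Gm28172 reached 0.0686 under DRF and 0.152 under NRF without 1 of the replicates, and that of Tbx3os1 under DRF 0.157.

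The next list was of imprinted or X-inactivation loci, and 7 members were on it or had their partner on it. Of these, 1 cycled under DRF and 2 under NRF (over all genes 36.6% and 45.0%). Airn, antisense to the growth factor receptor gene Igf2r, ranged from 2.39 to 5.89 scaled counts under DRF (median 3.78) and from 2.24 to 8.40 under NRF (median 3.87), and was called in neither. Tsix, the antisense RNA of the X-inactivation locus, ranged from 2.36 to 7.08 and from 2.79 to 7.47 and was called in neither. Partners were limited to coding genes, so no non-coding gene opposite Tsix was compared. As the use of strand in counting is not stated, its level may hold reads from the opposite strand. Kcnq1ot1 was called under NRF (adjusted p = 0.0157), where it reached 25.4 at ZT24, and was lost without replicate 2 or 3 (0.0853 and 0.146). Gm7008, inside Ifrd1, was called in both. Nespas, opposite Gnas, was 0.42 lower in mean under DRF (adjusted p = 0.0302, and between 0.0844 and 0.111 without 1 of the replicates). Neither 4933417O13Rik nor Gm28821 was called. These lie inside Kcnq1 and were counted only because that partner is on the list. A single member, Gm13427, lies opposite a gene of the nuclear RNA exosome (Exosc2). It was called under NRF (adjusted p = 0.013), with a peak 10.6 h from that of Exosc2, and was lost without replicate 3 or 4 (0.12 and 0.156).

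Detection in 28 libraries set the edge of the group. Just inside it, among members above 0 in 28 or 29 libraries, Gm17077 opposite Usf2 had the highest mean (2.12 scaled counts), with a median of 0.0115 under DRF and 0 under NRF and highest values of 8.06 and 9.53. Gm45732 and Tspan2os followed with means of 0.120 and 0.107. Just outside, with 27 libraries, were A730090N16Rik (0.0704), Gm20636 (0.0538) and 2010309G21Rik (0.0245).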

How the data were processed

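The gene table holds liver RNA of 56 libraries in 14 groups of 4, the labels naming separate samples but not whether extraction was shared. Per the labels, the authors used CASAVA 1.8 and featureCounts 1.5.0-p3 with builds mm10 and GRCm38.p6 (submitters' processing notes). The aligner, the annotation release and the strand setting of counting are not given in the sources used here. The deposited gene values are named TPM by the authors but are not linear, and they were treated as a score: value times exon length (GENCODE vM21) followed a logarithm of whole counts, which was inverted in each library to recovered counts and scaled counts. Of high values held out from this inversion, between 96.3% and 96.7% per library came out whole within 0.05 (10% by chance). Exon length was the annotated one for 1474 members, a default of 1000 for 55 and searched for 18, and 3 were rebuilt under a tolerance of 0.2.

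Log2(scaled count + 0.05) of 24360 genes above 0 in at least 28 libraries was fitted with limma 3.58.1 (R 4.3.3, trend and robust), by a 24 h cosine per regimen and by 14 group means, with Benjamini-Hochberg adjustment over all genes and a threshold of 0.05. Fold changes are on that scale, which understates low genes. Every adjusted p in the text is from these fits. Peak errors are standard errors by the delta method. Named genes were those with the smallest adjusted p for rhythm in both regimens, in 1 regimen only and for the difference, the most different means, the highest levels per kb, the smallest adjusted p of the ratio to the partner, members opposite listed genes and those at the detection limit. The members and lists were chosen with earlier results of these data known. Alternatives changed the pseudocount, filter, scaling, length trend, scale, times, replicates, threshold and test. Scripts were tested on simulated data. Transcript-level and circular RNA tables were not used here. Python 3.11.15, numpy 2.4.6, scipy 1.17.1 and pandas 2.3.3 were used. A few results at named loci are not reported here.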

Additional observations from a re-analysis of the deposited data

Results flagged for a closer look

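In groups of 4 libraries, the distance of the most extreme library from its nearest neighbour was divided by the range of the group, and 5 of 46 groups passed Dixon's 95% critical value, where chance flags about 1 in 20. For the shared level of the members this was replicate 2 of DRF at ZT16 (ratio 0.877, level -0.176) and replicate 3 of NRF at ZT12 (ratio 0.887, level 0.235). For single members it was Gm14097 under NRF at ZT20 (ratio 0.837, with 1.73 scaled counts against 0.941 to 1.07), Gm47766 under DRF at ZT16 (ratio 0.839) and Gm45355 under NRF at ZT0 (ratio 0.872, with 13.5 scaled counts against 8.64 to 9.26). The rhythm of 459 members (29.6%) differed between regimens by the test of that difference, a smaller share than over all genes (40.1%).

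The change from ZT0 to ZT24 differed between regimens in 1 member, Gm31323, opposite the endosomal sorting gene Vps26c at chr16:94488777-94522117 (limma, adjusted p = 0.039). Under DRF it went from 0.319, 0.253, 0.324 and 0.358 scaled count at ZT0 to 0.547, 0.468, 0.444 and 0.425 at ZT24, a log2 change of 0.52 (adjusted p = 0.0163). Under NRF it went from 0.702, 0.946, 0.585 and 0.543 to 0.521, 0.442, 0.411 and 0.534, a change of -0.47 (adjusted p = 0.0143). The call was kept in 5 of 13 alternatives and lost in 8, with adjusted p-values from 0.0502 (median-of-ratios scaling) to 0.9998 (without replicate 2), 0.35, 0.119 and 0.0914 without replicates 1, 3 and 4, 0.0591 with a pseudocount of 1, 0.243 with the length trend removed and 0.274 with the members' median subtracted. At an unadjusted p under 0.05, 156 members (10.1%) differed in that change, against 5.92% of all genes, and 94 with the members' median subtracted.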

How the results depend on the processing

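Of 210 counts recomputed under other settings, 157 stayed within 1.5 times the value reported, 45 were lower and 8 higher, and the cause was not tested. The median peak difference of member and partner ran from 1.06 to 2.42 h under DRF and from 0.809 to 2.26 h under NRF over all settings. With a pseudocount of 1, ratios were rhythmic in 506 pairs under DRF and differed in mean in 36. With a mean of at least 0.1 the latter was 2, without ZT0 it was 3 and without ZT24 it was 8. With the length trend removed, ZT24 differed from ZT0 in 48 members under DRF and 294 under NRF, ratios were rhythmic in 140 and 291 pairs, and 68 members were phase-locked. On deposited values, ratios were rhythmic in 627 and 758 pairs and differed in mean in 15. With the members' median subtracted, ZT24 differed in 51 and 107 members, ratios were rhythmic in 148 and 235 pairs, 168 members were inverted and 52 locked. At an adjusted p of 0.01, 312 members were rhythmic under DRF, 166 in both regimens and 21 differed in mean, ZT24 differed in 11 and 216, ratios were rhythmic in 85 and 176 pairs and differed in mean in 3, and 53 members were locked. An F test over times gave 501 members rhythmic in both regimens. Leaving out 1 replicate gave 331 to 442 members rhythmic under DRF and 175 to 218 in both regimens, 26 to 39 with a different mean, 4 to 49 and 49 to 471 with a ZT24 difference, 71 to 196 and 136 to 382 pairs with a rhythmic ratio, 2 to 4 with a different ratio mean and 54 to 92 locked members. Low counts limit the 262 members under 0.1 scaled count most.

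Replicate numbers showed little pairing of the samples. Deviations of same-numbered libraries correlated by 0.007 on average and those of other numbers by -0.0023. Of 56 libraries, 20 correlated best with their own number, a little more than the 1 in 4 that chance would give. Whether the numbers follow a batch was not tested. With a replicate block, 500 members were rhythmic under DRF, 676 under NRF and 293 in both, and 450 differed in rhythm. The block gave 47 members with a different mean, 513 that differed at any time, ZT24 differences in 76 and 454, rhythmic ratios in 238 and 439 pairs, a different ratio mean in 4, 100 inverted and 126 locked members, and median partner gaps of 1.5 and 1.6 h.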

Other observations

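Several members with a different mean lay opposite liver genes outside the lists, and they are named after their values were seen. Gm42375, opposite the cytochrome P450 gene Cyp2a4, was 0.83 lower on the log2 scale under DRF (limma, adjusted p = 2.65e-06), and Cyp2a4 0.86 lower. Egfros, opposite the growth factor receptor gene Egfr, differed by -0.64 and Egfr by -0.60. Igf1os, opposite the growth factor gene Igf1, differed by -0.36 and Igf1 by -0.20. Hectd2os, opposite the ubiquitin ligase gene Hectd2, differed by -0.74 (adjusted p = 1.34e-06), while Hectd2 was not called (adjusted p = 0.0647).

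Gm43691, inside Mttp, switched between near 0 and a high value within a group. It had 11.9, 0.0307, 13 and 10.5 scaled counts at ZT4 under DRF. Of 20 genes of the nuclear RNA exosome and its adaptors, 17 were tested, of which 9 were rhythmic under DRF, 10 under NRF and 8 differed in rhythm between regimens (over all genes 36.6%, 45.0% and 40.1%).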
